A study of Drosophila melanogaster with 2 samples.

Results

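Heterogeneous nuclear ribonucleoproteins (hnRNPs) are RNA-binding proteins that coat nuclear transcripts as they are made. Many of them influence which splice sites are used, and several also act later, in export, localisation or translation of the mRNA. The hnRNP A/B class and the serine- and arginine-rich (SR) proteins are known, mostly from work on human proteins, to have opposite effects on the choice between competing splice sites. In the fruit fly Drosophila melanogaster, B52 is an SR protein. The values below are the RNA ratios of fly hnRNP genes between larvae with a B52 transgene and control larvae. The genes were fixed by name as a list of 10: Hrb27C, Psi, sm, HnRNP-K, Hrb87F, Hrb98DE, sqd, glo, Rb97D and rump. A probe counted for a gene when the platform annotation gave it exactly 1 gene symbol that led to that gene. By this rule 8 of the 10 genes had 13 probes, out of 12236 genes with a probe in the series. The genes sqd and rump are not analysed here. Of the 13 probes, 12 had a value on both arrays, and 1 of the 3 Hrb27C probes was blank on both.

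The study used 2 two-colour microarrays that form a dye swap. Both arrays set RNA of control larvae, labelled GMR X GFP-NLS, against RNA of larvae labelled GMR X GFP-B52. Both groups thus carried GMR, a promoter of the developing eye, and green fluorescent protein (GFP), in the control with a nuclear localisation signal. The question was whether more B52 shifts gene expression at large. The B52 RNA carried the dye Cy5 on replicate 1 and Cy3 on replicate 2. The control RNA of replicate 1 is labelled cytoplasmic and the B52 RNA of that array polyA, so RNA type and genotype cannot be told apart there. The labels give neither the age of the larvae, nor the number of animals, nor any dissection. GMR acts in the eye primordium, and what share of the RNA came from such cells is not stated. In such bulk RNA, fewer cells of a type and less RNA per cell cannot be told apart. Levels could not be set against tissue markers, because only ratios were used.

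Each array gave 1 value per spot, assumed to be a log ratio, whose direction and log base are not stated. Hence 2 readings of "B52 over control" are given throughout. The channel reading takes every deposited value as it stands. The dye reading treats each as a Cy5 to Cy3 ratio and reverses the sign on replicate 2. If either ratio was deposited the other way up, as control over B52 or Cy3 over Cy5, every sign in that reading would turn. Those inverses are not tabulated. A probe whose deposited values have opposite signs on the arrays has a channel-reading mean closer to 0 than its dye-reading mean. For a probe with equal signs it is the other way round. The readings also differ in which pattern goes with the dye. If the values are B52 over control, opposite deposited signs go with the dye and equal signs with the genotype. If they are Cy5 over Cy3, the reverse holds. A dye-reading mean away from 0 could then be a dye effect, if the channel reading is the right one. Dye effects were not tested. Fold values are given for both possible bases. Values were present for 13919 spots of replicate 1 and 14026 of replicate 2, and 12500 probes were tested on both. Over these, the Pearson correlation of the arrays was 0.00949 as deposited, with probes sharing print position and dyes. No direction can be read from it.

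The hnRNP genes formed no single block in the dye reading: 4 of 8 genes had positive log ratios on both arrays, against 21.9% of all 10584 genes tested, and 3 had negative ones, against 25.6%. The list was drawn up with earlier results of these data known, so such comparisons with all genes or probes are descriptions. Hrb27C, Psi and sm had the highest means, from 0.27 to 0.33, and glo had a lower one of 0.12. HnRNP-K, Hrb98DE and Hrb87F had negative means. In the channel reading the means ran from -0.04 to 0.10, nearer 0 than in the dye reading for all members but Rb97D. There 1 gene was positive on both arrays, against 28.1% of all genes, and 0 negative, against 24.3%. No hnRNP probe passed limma's test in either reading, and neither did any other of the 12500 probes tested.

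Hrb27C and Psi are known for silencing the third intron of the P element transposon in somatic cells. Hrb27C, also called hrp48, is an RRM protein that binds the silencer upstream of that intron, and it also acts in the localisation and translational repression of oskar mRNA. The deposited log ratio of its probe 5197 was 0.426 on replicate 1 and -0.333 on replicate 2. Its probe 2928 had 0.285 and -0.270. Both probes were thus above 0 on the array with B52 in Cy5 and below 0 on the array with B52 in Cy3. Probe 5197 had a dye-reading mean of 0.38 ± 0.07 (SD, n = 2 arrays). That is 2.40-fold on a log10 scale or 1.30-fold on a log2 scale. Its limma adjusted p over all probes was 0.477, the lowest of any hnRNP probe in either reading, and its 95% limma interval ran from 0.15 to 0.61. Probe 2928 had a dye-reading mean of 0.28 ± 0.01 with a limma adjusted p of 0.693. Their channel-reading means were 0.05 ± 0.54 and 0.01 ± 0.39, with spreads between the arrays far above the means.

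Psi, the P element somatic inhibitor, is a KH-domain protein that binds the same silencer and contacts the U1 small nuclear ribonucleoprotein. Its single probe had 0.275 on replicate 1 and -0.312 on replicate 2. The dye-reading mean was 0.29 ± 0.03 (SD, n = 2 arrays; limma adjusted p = 0.643), which is 1.97-fold on a log10 scale or 1.23-fold on a log2 scale. The channel-reading mean was -0.02 ± 0.42. Psi therefore had almost the same size on both arrays, with the deposited sign reversed.

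The gene sm (smooth) encodes the fly relative of human hnRNP L. Its 1 probe had 0.291 on replicate 1 and -0.258 on replicate 2. This gave 0.27 ± 0.02 (SD, n = 2 arrays; limma adjusted p = 0.702) in the dye reading, against 0.02 ± 0.39 in the channel reading. The gene glo (glorund) encodes an hnRNP F/H protein that represses translation of nanos mRNA in the embryo. Its probes were 0.207 and 0.223 on replicate 1, but only -0.010 and -0.028 on replicate 2. The glo value thus rested on replicate 1. Its gene mean was 0.12 ± 0.14 (dye reading; SD, n = 2 arrays), against 0.10 ± 0.17 in the channel reading, with the spread above the mean in both.

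Hrb98DE and Hrb87F, fly relatives of human hnRNP A1 and A2/B1, had negative means in the dye reading. Hrb98DE (hrp38) and Hrb87F (hrp36) are abundant nuclear hnRNPs known to gather with the noncoding RNA of the hsr-omega locus in omega speckles. Hrb98DE probe 4012 had -0.262 on replicate 1 and 0.196 on replicate 2. Its other probe, 2700, had 0.012 and 0.230, so these probes differed on replicate 1 and were alike on replicate 2. The gene mean of Hrb98DE was -0.17 ± 0.06 (dye reading; SD, n = 2 arrays), against 0.04 ± 0.24 in the channel reading. Its probe 4012 had a limma adjusted p of 0.838 in the dye reading. Hrb87F had values closer to 0, -0.052 on replicate 1 and 0.075 on replicate 2. Its dye-reading mean was -0.06 ± 0.02 and its channel-reading mean 0.01 ± 0.09.

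HnRNP-K, the KH-domain protein encoded by the locus also called bancal, was measured by a pair of probes that gave like values. Probe 3277 had -0.205 on replicate 1 and 0.108 on replicate 2, and probe 6675 had -0.167 and 0.117. The gene mean was -0.15 ± 0.05 (dye reading; SD, n = 2 arrays), against -0.04 ± 0.21 in the channel reading. The limma adjusted p was 0.999 for either probe in the dye reading. Rb97D, an RNA-binding protein needed for male fertility, was the only measured member whose mean kept its deposited sign on both arrays. It had 0.040 on replicate 1 and 0.069 on replicate 2, or 0.05 ± 0.02 in the channel reading, against -0.01 ± 0.08 in the dye reading. Its channel-reading limma adjusted p was 0.961.

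**Figure D1:**
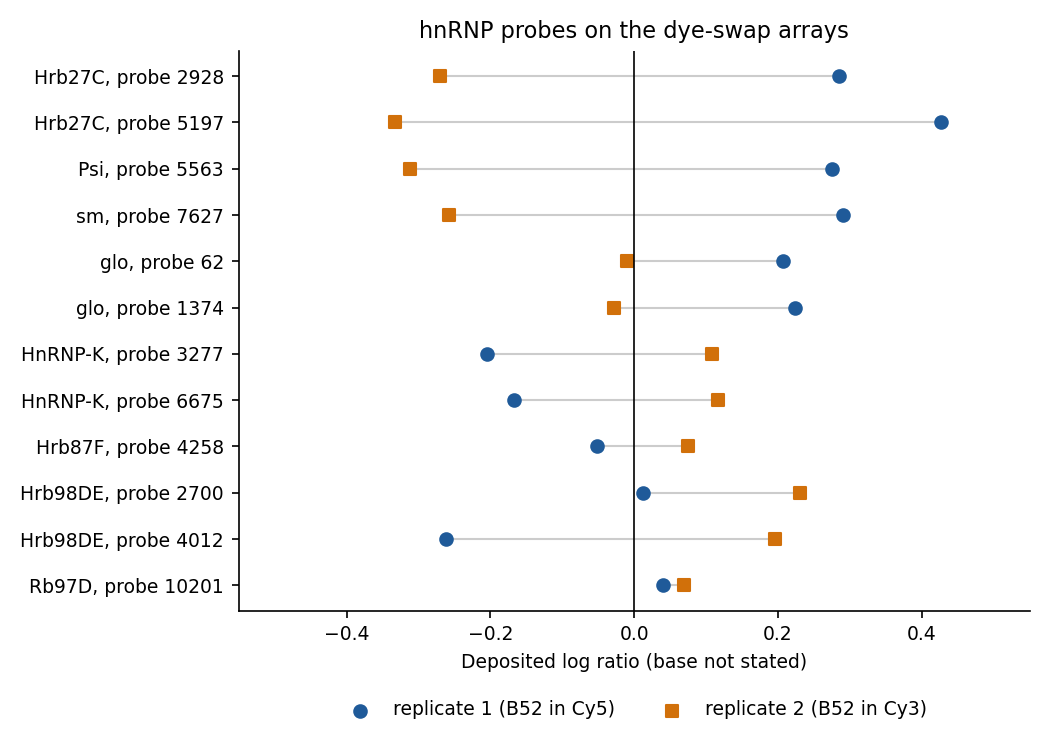
Deposited log ratio (x axis, base not stated) of the 12 measured hnRNP probes (y axis), with replicate 1 as circles, replicate 2 as squares and a line joining the arrays of each probe. For 10 of the 12 probes the arrays lie on opposite sides of 0; the exceptions are Hrb98DE probe 2700 and Rb97D.

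The order of the gene means in the dye reading was Hrb27C, Psi, sm, glo, Rb97D, Hrb87F, HnRNP-K and Hrb98DE. Between neighbours in the upper part, Hrb27C, Psi and sm overlapped: they had 0.356, 0.275 and 0.291 on replicate 1 and 0.302, 0.312 and 0.258 on replicate 2. These 3 genes were above the other 5 on each array in that reading. At the lower end HnRNP-K had -0.186 on replicate 1 and Hrb98DE had -0.125, while on replicate 2 they had -0.112 and -0.213, so their order differed between the arrays. These are descriptions of ratios of different probes, and no test was made between genes.

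**Figure D2:**
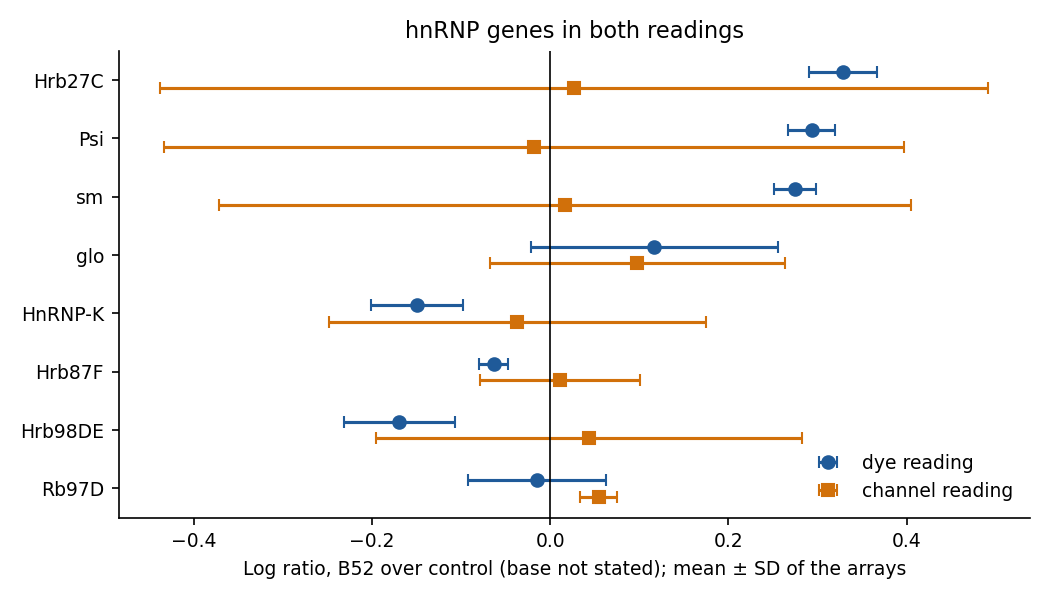
Mean log ratio of B52 over control for the 8 measured hnRNP genes, with circles for the dye reading and squares for the channel reading. Bars are the SD of the 2 arrays. In the channel reading the bars of 7 genes cross 0, and in the dye reading those of glo and Rb97D do.

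Counts over the probes were read against all 12500 tested probes. Deposited signs were opposite on the arrays for 10 of the 12 hnRNP probes, against 47.9% of all probes. For the dye reading this made 6 probes positive on both arrays, against 22.6% of all probes, while 4 were negative on both, against 25.3%. The 6 positive probes belonged to 4 genes and the 4 negative ones to 3 genes, so probes of 1 gene are not independent counts. The channel reading had 2 probes positive on both arrays, against 27.4% of all, while 0 were negative on both, against 24.6%.

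By the test, 0 of the 12 hnRNP probes passed a limma adjusted p of 0.05 in the dye reading, where 0% of all probes did. The same held in the channel reading, again with 0% of all probes. At an unadjusted limma p under 0.05, 4 hnRNP probes were counted in the dye reading, against 6% of all probes. They were both probes of Hrb27C and those of Psi and sm, and their 95% intervals excluded 0. The channel reading had 0 such hnRNP probes, against 6.52% of all probes. The half-widths of the 95% intervals of the hnRNP probes were 0.229 to 0.255 in the dye reading and 0.213 to 0.511 in the channel reading. Differences smaller than these could not be told from 0 with 2 arrays, even before adjustment. The list was drawn up with earlier results of these data known, so the 4 of 12 is a description, as are the other member counts and sizes.

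A rule of size without a p-value asked for the same sign and at least 0.301 on each array, which is 2-fold if the values are log10. Hrb27C probe 5197 passed it in the dye reading, 1 of 12, against 1.41% of all probes in the positive direction. Its value on replicate 2 was 0.333 after the sign was turned, close to that limit. With print-block medians subtracted, as described below, this probe no longer reached the limit on replicate 2. Psi was just outside, with 0.275 on replicate 1. No hnRNP probe passed in the negative direction, where 0.216% of all probes did. By the channel reading 0 passed in either direction, against 0.736% of all probes above and 0.784% below. At a log ratio of 1 on each array, 2-fold if log2, no hnRNP probe passed in either reading, where 0% of all probes passed.

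**Figure D3:**
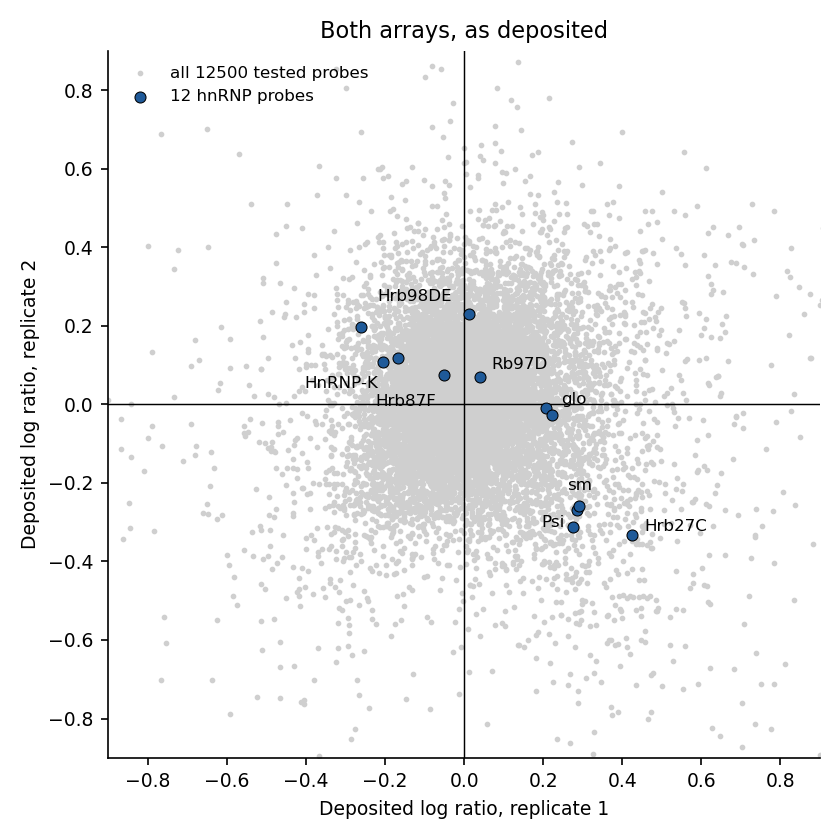
Deposited log ratio on replicate 1 (x axis) against replicate 2 (y axis) for all 12500 tested probes (grey) and the 12 hnRNP probes (blue, named by gene); 66 probes lie outside the axes. Hrb27C, Psi and sm lie together at the lower right, and HnRNP-K, Hrb87F and 1 probe of Hrb98DE at the upper left, where the arrays have opposite deposited signs.

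Over the 8 genes, the median log ratio was 0.051 ± 0.108 (SD of the 2 array medians) in the dye reading, against 0.022 ± 0.072 in the channel reading. Over all 10584 genes tested the medians were -0.0075 and 0.0085. The hnRNP median in the dye reading was 0.128 on replicate 1 and -0.025 on replicate 2, so it differed in sign between the arrays. As a median over gene means, it need not lie between the array medians, and the channel-reading one did not. The size of the gene means, with the sign dropped, had a median of 0.159 for the hnRNP genes in the dye reading, against 0.0645 for all genes. For the channel reading it was 0.0319 against 0.071.

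Probes of 1 gene could be compared for the 4 members with 2 measured probes. Dye-reading means of the paired probes differed by 0.0145 for HnRNP-K, 0.017 for glo, 0.102 for Hrb27C and 0.12 for Hrb98DE. Over the 392 genes of the series with 2 tested probes, this difference had a median of 0.103. On replicate 1 the Hrb98DE probes differed by 0.274, where the median over those genes was 0.136. All other member pairs had the same sign on each array. The probes of glo and those of Hrb98DE each lay 1312 probe numbers apart, an interval shared by 86 of the 392 pairs, and whether they carry the same sequence is not stated.

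Deposited values also differed by position on the array. The layout repeats every 656 probe numbers, and each of these 24 runs was taken as a print block. Block medians ran from -0.073 to 0.0795 on replicate 1 and from -0.139 to 0.159 on replicate 2. They correlated between the arrays over the 24 blocks (Pearson r = 0.847, a description of blocks that share the layout). Hrb27C probe 5197 lay in a block with medians of -0.073 and -0.086, and HnRNP-K probe 6675 in one with 0.0595 and 0.159. After the block medians were subtracted, the arrays correlated at -0.0777 over all probes. Dye-reading gene means then were 0.32 for Hrb27C, 0.30 for Psi, 0.29 for sm, 0.12 for glo, -0.13 for HnRNP-K, -0.05 for Hrb87F, -0.17 for Hrb98DE and -0.04 for Rb97D, each with the sign it had before. The Rb97D mean had been -0.01. By the channel reading Hrb27C went from 0.03 to 0.08, HnRNP-K from -0.04 to -0.08, glo from 0.10 to 0.05 and Rb97D from 0.05 to 0.08. Hrb87F went from 0.01 to 0.0030 and Hrb98DE from 0.04 to 0.05. Psi turned from -0.02 to 0.04 and sm from 0.02 to -0.0040. HnRNP-K probe 6675 changed to -0.227 on replicate 1 and -0.0415 on replicate 2, equal signs, which left 9 of 12 hnRNP probes with opposite signs, against 50.9% of all probes.

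**Figure D4:**
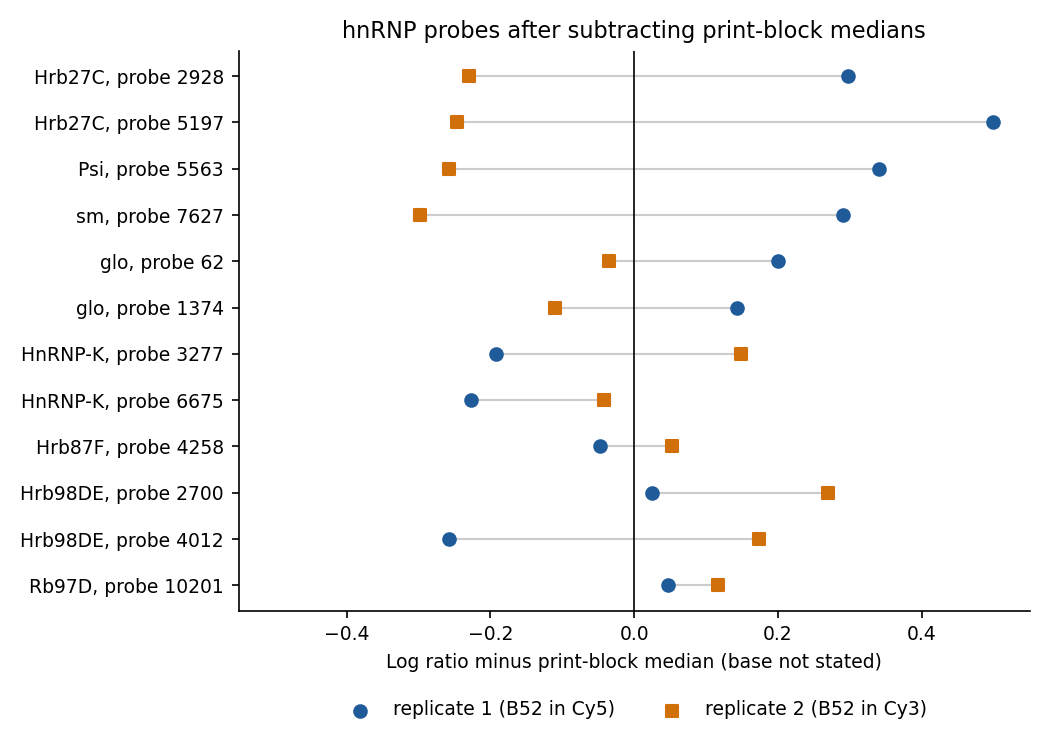
Log ratio minus the median of its print block (x axis, base not stated) for the 12 hnRNP probes (y axis), with replicate 1 as circles and replicate 2 as squares. Opposite signs on the arrays are left in 9 probes; HnRNP-K probe 6675 now lies below 0 on both.

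B52 itself had 5 probes, and the mean over them was -0.136 on replicate 1 and 0.0424 on replicate 2 as deposited. In neither reading was it above 0 as a mean, with -0.09 ± 0.07 (dye reading; SD, n = 2 arrays), against -0.05 ± 0.13 in the channel reading. The arrays beside which the hnRNP values stand did not show a raised mean of the B52 probes in either reading. Were either reading inverted, its B52 mean would be above 0, and the labels do not settle this. What part of the transcript those probes cover is not stated.

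Other hnRNP-related proteins gave a mixture of signs. That list had 18 genes, of which 15 were measured, by 22 probes. By the dye reading 5 of the 15 were positive on both arrays, against 21.9% of all genes, while 5 were negative on both, against 25.6%. The median was 0.001, with array medians of 0.031 and -0.044. The poly(A)-binding protein gene pAbp had 0.461 on replicate 1 and -0.302 on replicate 2 as deposited, or 0.38 ± 0.11 (SD, n = 2 arrays; limma adjusted p = 0.487) in the dye reading. Rox8, the fly TIA-1 relative, had 0.26 ± 0.01 over 2 probes, and Syp, the relative of hnRNP Q and R, had 0.21 ± 0.09. By the naming rule such genes have opposite deposited signs on the arrays. The channel reading had 3 of the 15 positive on both arrays, against 28.1% of all genes, while 2 were negative on both, against 24.3%. Its median was 0.034, with array medians of 0.031 and 0.044. Named by the same rule there, Pep, a protein of the ecdysone puffs, had 0.12 ± 0.04, Rbp6, a Musashi relative, had 0.13 ± 0.06, and Imp, which binds mRNA in the cytoplasm, had -0.14 ± 0.09.

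Splicing regulators outside the family, B52 among them, were measured for 14 of 21 genes. The median over their gene means was -0.0051 in the dye reading, closer to 0 than the array medians of -0.0392 and -0.0370. For the channel reading it was 0.028, with array medians of -0.0392 and 0.0370. Of the 14, 3 were positive on both arrays in the dye reading, near the 21.9% of all genes, and 6 negative, where 25.6% of all genes were. The channel reading had 2 positive and 3 negative, where 28.1% and 24.3% of all genes were. Dye-reading means were 0.12 ± 0.01 for Rbfox1, a regulator of alternative exons, -0.14 ± 0.04 for the splicing repressor Rsf1 and -0.10 ± 0.04 for the sex-determination gene tra (SD, n = 2 arrays). Channel-reading means were 0.12 ± 0.01 for Sxl, the master switch of sex determination, -0.12 ± 0.06 for the neuronal gene fne and -0.10 ± 0.03 for the splicing factor gene hfp.

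The third list held mRNAs bound by hnRNPs and factors of RNA transport, with values for 12 of the 16. The median over the gene means was -0.011 in the dye reading, closer to 0 than the array medians of -0.0355 and -0.0595. For the channel reading it was 0.004, with array medians of -0.0355 and 0.0595. Of the 12, 3 were positive on both arrays in the dye reading, near the 21.9% of all genes, and 5 negative, where 25.6% of all genes were. The channel reading had 2 positive and 2 negative, where 28.1% and 24.3% of all genes were. The gene fs(1)K10, needed for dorsoventral polarity of the egg, had 0.314 on replicate 1 and -0.320 on replicate 2, a dye-reading mean of 0.32 ± 0.0042 (SD, n = 2 arrays; limma adjusted p = 0.595). Tnpo, the transportin that imports hnRNP A1 in human cells, had 0.458 and -0.085, or 0.27 ± 0.26. Ref1, an mRNA export adaptor, had -0.10 ± 0.01. By the channel reading grk and otu, genes of the female germline, had 0.10 ± 0.02 and 0.10 ± 0.0035, and Cbp20 of the cap-binding complex had -0.08 ± 0.03. In all 3 lists limma passed 0 probes in either direction and in either reading. At an unadjusted p under 0.05 limma counted 5 of 22, 3 of 29 and 1 of 13 probes of the lists in the dye reading, where 6% of all probes were counted. It counted 0, 1 and 0 in the channel reading, where 6.52% of all probes were.

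**Figure D5:**
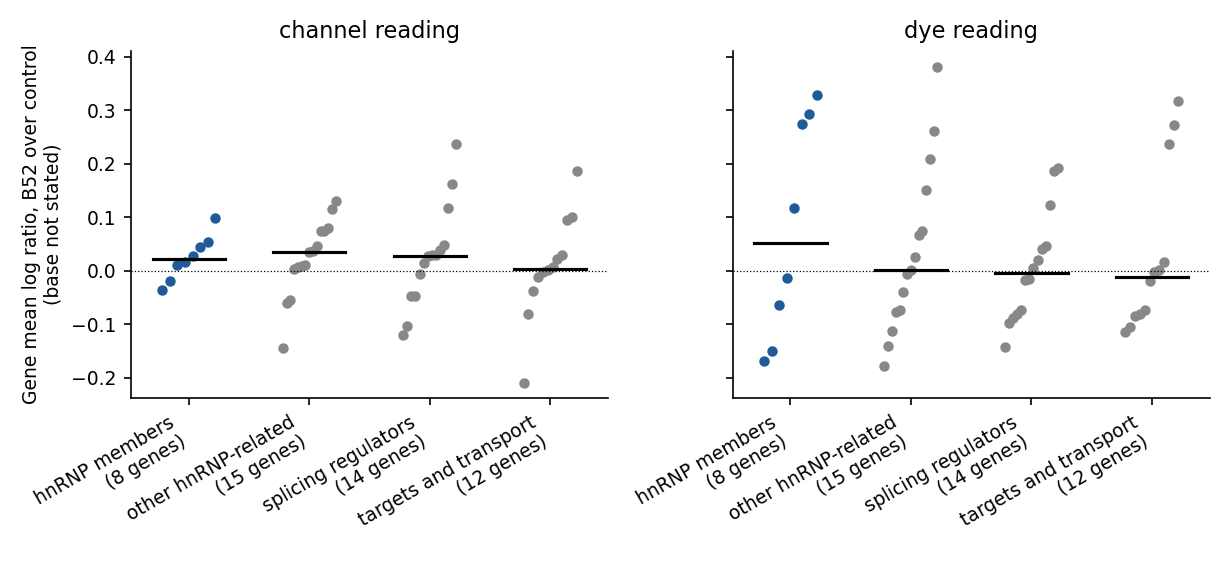
Mean log ratio of B52 over control per gene (y axis, base not stated) for the hnRNP members and the 3 other lists (x axis), in the channel reading (left) and the dye reading (right). Lines are medians. In the dye reading the members lie in an upper group of 3 genes at 0.27 to 0.33 and 5 genes at 0.12 or lower, and in the channel reading all lie between -0.04 and 0.10.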

How the data were processed

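RNA of B52 and control larvae was measured on 2 two-colour arrays. The values deposited by the authors, 1 per spot of each array, were assumed to be log ratios. Image analysis, background correction, normalisation, log base and direction were not given in the sources used here. Separate extracts for the arrays are not mentioned, and p-values then reflect array-to-array spread alone, which may be technical. The 5 spots of replicate 1 with the code -10000 were treated as missing, and 960 unnamed spots at 40 repeated positions were left out as control spots. Probes were named by the platform annotation, updated through gene identifiers to RefSeq symbols, which matched 12519 of 13147 probes with 1 symbol. Without intensities dim spots could not be judged, and no build is named, so positions are not given. Probes of a gene were averaged per array.

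All 12500 probes measured on both arrays were tested against 0 with limma 3.58.1 in R 4.3.3 (lmFit, eBayes, 1 residual degree of freedom), with Benjamini-Hochberg adjustment over all of them and a threshold of 0.05. The script was tested first on simulated data with shifts of 1 in either direction, larger than any hnRNP mean here. Recovery of shifts of the sizes reported was not tested. Tables and plots used Python 3.11.15, numpy 2.4.6, pandas 2.3.3 and matplotlib 3.10.9. All members were named, with B52 and, per list and reading, the 3 genes of equal sign whose weaker array value was largest. Members, lists and the size rule were chosen with earlier results of these data known. Alternatives covered centring, scaling, print blocks, probe averaging, symbols, control spots, the variance model, the size rule and single arrays.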

Additional observations from a re-analysis of the deposited data

How the results depend on the processing

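With 2 arrays, an unstated direction and no intensities, each value holds only within the reading it is given for. Limma called 0 hnRNP probes and 0 probes in all, in both readings, on the deposited values and under the scaling, centring, averaging, control-spot and print-block alternatives. The robust form and the ordinary 1-sample test, run on the deposited values alone, also called 0. At an unadjusted p under 0.05 limma counted 815 of all probes (channel reading) or 750 (dye reading). Limma could not be fitted to a single array. The hnRNP median stayed within the spread of the array medians under centring, scaling, print-block subtraction and the other rules for probes, from 0.0435 to 0.0562 for the dye reading and, for the channel reading, 0.0158 to 0.0456. On single arrays it ran from -0.025 to 0.128 in the dye reading and from 0.025 to 0.128 in the channel reading. The counts of 4 positive and 3 negative genes in the dye reading were the same under those alternatives, and on single arrays ran from 4 to 5 and from 3 to 4. The channel-reading counts of 1 and 0 were 4 to 5 and 3 to 4 on single arrays, where only 1 sign is asked. At a log ratio of 1, the size rule kept 0 hnRNP probes in the dye reading in place of 1. Of the 36 gene means under processing alternatives, B52 included, 0 changed sign in the dye reading, against 2 in the channel reading. Those were Psi, to 0.04, and sm, to -0.0040, with print-block medians subtracted. Many of the 36 could not change sign, since a median over 1 or 2 probes equals their mean. Scaling also cannot turn a mean whose arrays share a sign in that reading. Of the 18 single-array values, 1 had another sign than the mean in the dye reading, Rb97D with 0.04 on replicate 1. In the channel reading 8 did. These counts follow from the deposited signs. A gene of opposite signs always has 1 array unlike its channel-reading mean and no array unlike its dye-reading mean. The counts therefore do not show which reading is steadier. Each array holds both groups, so the pairing of B52 with control lies within each log ratio, and no further pairing was made.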
